A study of Mus musculus with 11 samples.

Results

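Integration sites of HIV that lay more than 50 kb from every annotated mouse gene other than a pseudogene were examined in 11 libraries. They were found by distance alone, from genome positions on mm9 and a gene annotation of the same assembly. They numbered 104970 of 831994 distinct sites, or 12.6%. The ground that meets the same rule held 734.54 Mb, or 28.74% of the 2555.81 Mb of sequence other than unread bases. All libraries came from C57BL/6 mouse embryonic fibroblasts (MEF) of genotype LEDGF-/-. Each was electroporated with a plasmid for 1 protein fused to the integrase-binding domain of LEDGF, infected with HIV 24 hours later and grown for 3 more days. The fused proteins were NELFA, NELFB, NELFCD and NELFE (4 libraries, called NELF here), SPT5 (1 library), and INTS3, NABP1, NABP2, INIP, INTS9 and INTS11 (6 libraries, called Integrator here). There was 1 library per protein, so the subunits of a complex stand in for replicates, and p-values measure the spread between subunits. Integration in cells that lacked a fusion was not analysed here, so how many sites owe their place to the fusion was not measured. Distinct sites per library numbered between 18753 (NELFE) and 197069 (INTS9).

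LEDGF normally tethers the viral integrase to chromatin of active genes, and a fusion to its integrase-binding domain is a way to mark where another protein meets chromatin. NELF and SPT5, a subunit of DSIF, hold RNA polymerase II shortly after it starts. Integrator cleaves nascent RNA, including small nuclear RNAs and the transcripts of enhancers. INTS9 and INTS11 belong to its cleavage module, and INTS3 and INIP form with NABP1 or NABP2 the SOSS complexes that bind single-stranded DNA. Ground far from genes can hold enhancers and unannotated transcripts. AP-1 is a family of transcription factors that binds many enhancers of fibroblasts.

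Sites of all 11 libraries met in a small number of far intervals, described further on, and 4 stretches from the densest points of such intervals are shown because they differ in what they hold. All are 300 bases of the plus strand of NCBIM37, the same assembly as mm9, with matches to the AP-1 motif TGANTCA in capitals.
Chromosome 15 between Asap1 and Adcy8, chr15:64454249-64454548: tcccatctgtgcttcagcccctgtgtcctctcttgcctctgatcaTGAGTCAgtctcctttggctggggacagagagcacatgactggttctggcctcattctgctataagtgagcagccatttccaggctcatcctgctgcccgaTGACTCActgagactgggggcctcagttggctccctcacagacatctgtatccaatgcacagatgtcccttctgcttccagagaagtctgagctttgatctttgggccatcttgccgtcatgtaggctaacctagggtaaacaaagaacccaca
Chromosome 2 between Rasgrp1 and Thbs1, chr2:117575140-117575439: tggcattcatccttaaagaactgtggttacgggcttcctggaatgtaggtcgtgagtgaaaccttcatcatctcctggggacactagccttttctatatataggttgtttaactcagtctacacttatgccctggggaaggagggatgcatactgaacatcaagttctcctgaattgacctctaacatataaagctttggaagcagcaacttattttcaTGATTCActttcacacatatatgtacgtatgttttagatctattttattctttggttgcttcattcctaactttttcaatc
Chromosome 3 beside Pgrmc2, chr3:40989463-40989762: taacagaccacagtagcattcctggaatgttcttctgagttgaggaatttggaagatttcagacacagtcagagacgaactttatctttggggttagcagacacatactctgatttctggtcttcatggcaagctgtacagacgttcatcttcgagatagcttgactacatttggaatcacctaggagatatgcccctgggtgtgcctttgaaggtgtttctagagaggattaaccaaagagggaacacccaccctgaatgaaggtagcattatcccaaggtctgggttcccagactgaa
Chromosome 17 in the pseudogene AY036118, chr17:39984594-39984893: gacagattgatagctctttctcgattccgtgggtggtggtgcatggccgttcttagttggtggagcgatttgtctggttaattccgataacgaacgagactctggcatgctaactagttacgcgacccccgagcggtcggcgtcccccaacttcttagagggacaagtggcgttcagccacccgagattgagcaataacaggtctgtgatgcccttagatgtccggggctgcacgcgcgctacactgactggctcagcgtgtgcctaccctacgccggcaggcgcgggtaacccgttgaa
Of the densest stretches of the 10 intervals described further on, only those on chromosomes 15 and 2 held an AP-1 match. Both are shown, so the stretches above do not give the usual share. The stretch on chromosome 15 held 2 AP-1 matches and sites of 6 libraries. The stretch on chromosome 2 held 1 match and sites of 3 libraries, and that on chromosome 3 held 0 matches and sites of 6 libraries. The stretch on chromosome 17 had sites of 10 libraries, a GC content of 57.0% and 25 CG pairs. AY036118 is a pseudogene in the annotation used for the distance rule, whereas the RefSeq gene table (GRCm38.p6) has it among genes that are not pseudogenes. That table lists Rn18s-rs5, a pseudogene related to 18S ribosomal RNA, beside AY036118. Ribosomal RNA genes have many near-identical copies, so reads from other copies cannot be told apart there.

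Far ground held fewer sites than its length in every library. The share of sites that were far was 12.2% in NELFA, 11.5% in NELFB, 13.4% in NELFCD and 13.5% in NELFE, and 10.7% in SPT5. Among the Integrator libraries it was 12.1% in INTS3, 11.001% in NABP1, 9.18% in NABP2, 18.9% in INIP, 14.9% in INTS9 and 18.8% in INTS11. The NELF values lay within the range of the Integrator values, where INIP and INTS11 were highest and NABP2 lowest. Means were 12.7% ± 0.979 in NELF (SD, n = 4) and 14.1% ± 4.07 in Integrator (SD, n = 6), an exact two-sided permutation test over all 210 arrangements of the group labels giving p = 0.50 (0.50 after Benjamini-Hochberg adjustment over 6 tests). As a fold over uniform placement, the shares averaged 0.462 ± 0.109 (SD, n = 11), between 0.319 in NABP2 and 0.656 in INIP. Uniform placement also counts bases to which reads cannot be mapped. Their part in these folds, and in the fall with distance given below, was not tested. Far sites in the libraries numbered between 2534 (NELFE) and 29337 (INTS9). Intervals on single shares are exact binomial at 95% and cover counting error only.

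**Figure D1:**
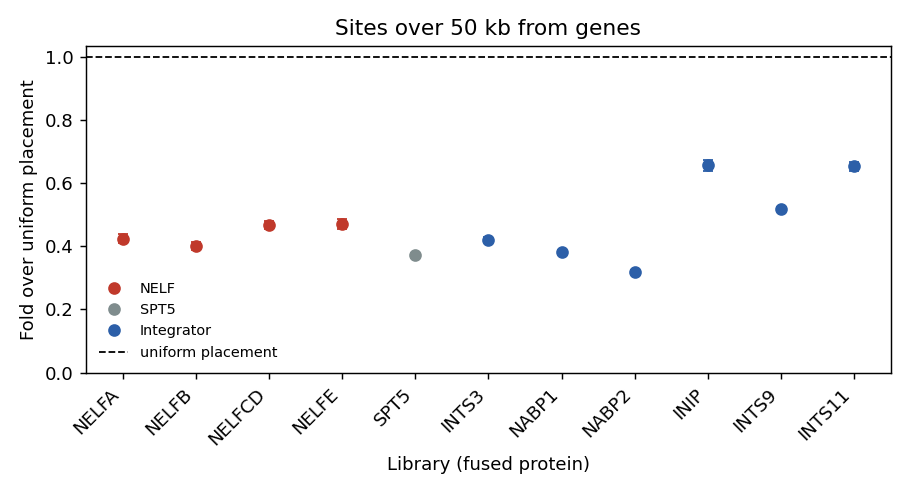
Fold of the share of sites over 50 kb from genes over uniform placement (y axis) in each library (x axis), with exact 95% binomial intervals; the dashed line is uniform placement. Every library lies below 1, from 0.319 in NABP2 to 0.656 in INIP.

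Density went on falling with distance inside the far ground. From 50 to 100 kb from a gene it was 0.516 ± 0.0318 of uniform in NELF, 0.399 in SPT5 and 0.556 ± 0.145 in Integrator. Beyond 500 kb it was 0.327 ± 0.0365 in NELF, 0.302 in SPT5 and 0.402 ± 0.135 in Integrator (SD, n = 4 and 6). NELF and Integrator did not differ past the adjusted threshold in any of the 4 far bands (exact permutation tests, adjusted p = 0.743 in each, over 8 bands). Of the 8 bands, the one from 1 to 5000 bases outside a gene passed, with 2.23 ± 0.170 in NELF and 1.49 ± 0.163 in Integrator (exact permutation test, adjusted p = 0.0381). Of far sites, 29.2% ± 0.956 in NELF and 30.1% ± 1.27 in Integrator lay over 200 kb from genes (exact permutation test, p = 0.338, adjusted p = 0.406), and 31.7% in SPT5.

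**Figure D2:**
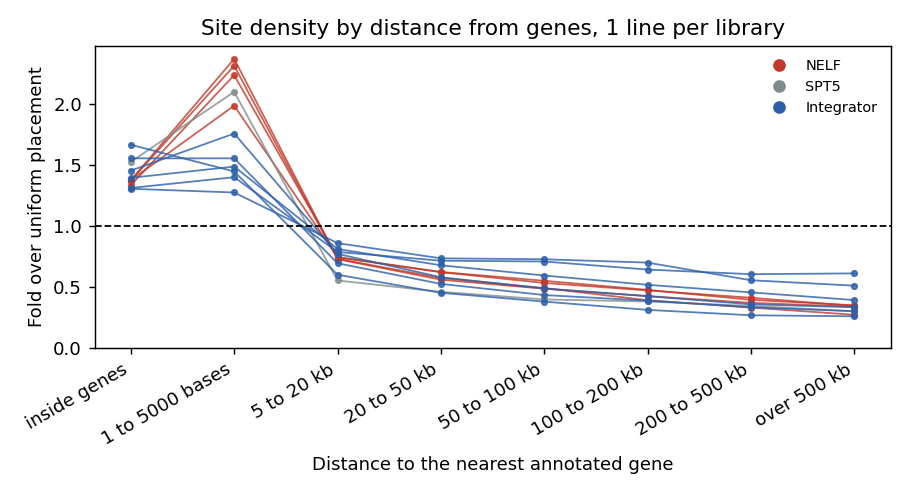
Site density as a fold over uniform placement (y axis) by distance to the nearest annotated gene (x axis), 1 line per library. Lines lie above 1 inside genes and within 5000 bases of them, and between 0.260 and 0.613 beyond 500 kb.

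Far sites lay closer together than uniform placement gives. Uniform placement here takes no account of the fall in density with distance or of bases to which reads cannot be mapped, and their part in this and the shared windows was not tested. With every library reduced to 2534 far sites by an exact formula, 3.40% of sites in NELFA, 4.33% in NELFB, 2.15% in NELFCD and 2.33% in NELFE had another site of the library within 1 kb. The value was 1.39% in SPT5. It was 1.61% in INTS3, 1.65% in NABP1, 2.22% in NABP2, 1.38% in INIP, 1.39% in INTS9 and 1.41% in INTS11, against 0.686% for uniform placement. Of the NELF libraries, 3 lay above all Integrator libraries, and NELFCD lay below NABP2. The means were 3.05% ± 1.01 in NELF (SD, n = 4) and 1.61% ± 0.320 in Integrator (SD, n = 6), an exact permutation test giving p = 0.00952 and an adjusted p of 0.0571, which missed the threshold of 0.05. The labels name no flow cell, so it was read from a field of the read names. By that field, all NELF libraries were run on a flow cell of their own. Effects of the complex and of the flow cell therefore cannot be told apart, here or in any other comparison of NELF with Integrator. By the same field, SPT5 was alone on its flow cell too. The median reads per far site were 7 to 42 in NELF libraries, 9 in SPT5 and 7 to 19 in Integrator libraries, and their part in the result was not tested.

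**Figure D3:**
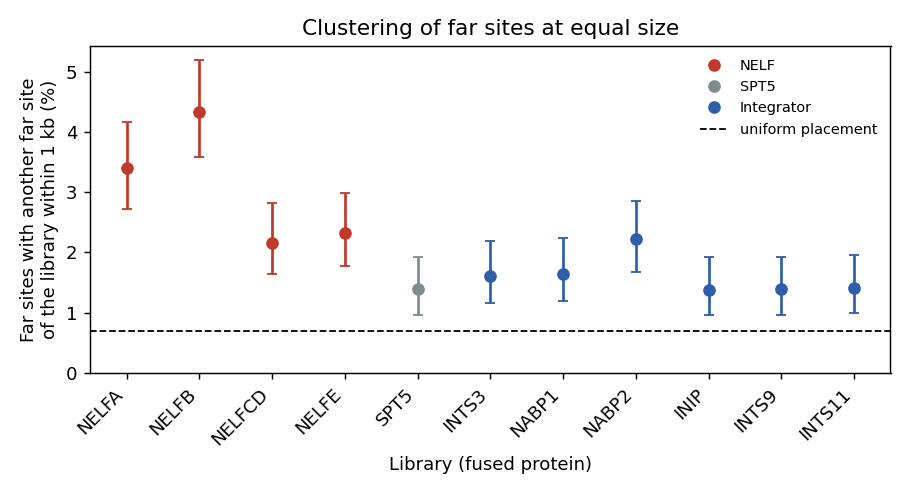
Share of far sites with another far site of the same library within 1 kb (y axis, percent) at an equal size of 2534 sites, by library (x axis). Bars are 95% binomial intervals that treat the 2534 sites as independent. Neighbouring sites are counted together, so the bars do not give the counting error of the values. The dashed line is uniform placement at 0.686%; all libraries lie above it.

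Libraries also met each other. At equal size, a far site of 1 NELF library had a far site of another NELF library within 1 kb 3.43 times as often as under uniform placement, as a mean of 6 pairs between 2.41 and 4.17. For NELF with SPT5 the mean was 2.17 over 4 pairs, for NELF with Integrator 2.26 over 24 pairs, for SPT5 with Integrator 1.66 over 6 pairs, and within Integrator 1.88 over 15 pairs. NELFB with NELFCD had the highest value. These folds share libraries and are given as a description. Far sites in a 10-kb window with sites of at least 3 other libraries, at equal size, made up 4.71% in NELF, 2.73% in SPT5 and 3.28% in Integrator (exact permutation test, p = 0.0381, adjusted p = 0.0857).

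Windows of 10 kb hit by at least 4 libraries numbered 3408 of 76907 windows with far ground. Uniform placement of the same sites gives 1823, a ratio of 1.87. Of windows lying wholly in far ground, 4.63% were hit by at least 4 libraries, against 16.9% of windows over the whole genome. At 6 or more libraries there were 437 windows against 25.8 under uniform placement, and at 8 or more there were 57 against 0.0795. Windows with at least 1 far site were fewer than uniform placement gives, 50008 against 56456. A single window, on chromosome 17, held sites of all 11 libraries. Of the NELF libraries' far sites, between 23.2% (NELFCD) and 30.1% (NELFB) lay in windows hit by at least 4 libraries, against 17.4% in SPT5 and 16.2% (INTS9) to 24.2% (NABP2) in Integrator libraries. These last shares were not brought to equal size.

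**Figure D4:**
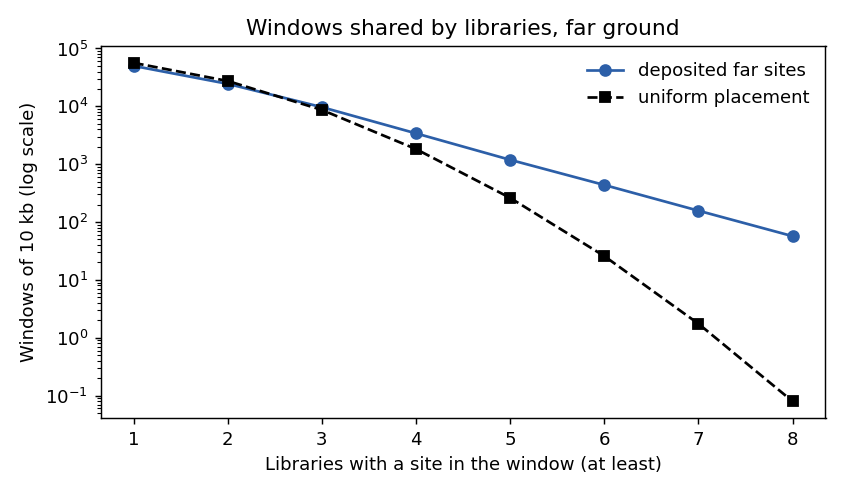
Number of 10-kb windows (y axis, log scale) with far sites of at least the given number of libraries (x axis), for the deposited sites and for uniform placement. The lines cross between 2 and 3 libraries, and at 8 libraries there are 57 windows against 0.0795.

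Adjacent windows of this kind joined into 2710 intervals, of which 20 held sites of all 11 libraries. The 10 with the most sites per 100000 among those are described, and since they were chosen for these values no test is given. The first spanned chr2:117460001-117580000, between Rasgrp1, a Ras activator of lymphocytes, and Thbs1, which encodes the matrix protein thrombospondin. These coding genes are 292 and 358 kb from its outermost sites. The nearest annotated genes are the noncoding Gm13982, at 217 kb, and Gm13985, at 53.0 kb. Per 100000 sites the interval held 23.2 in NELFA, 42.0 in NELFB, 26.7 in NELFCD and 15.997 in NELFE, and 7.31 in SPT5. It held 10.4 in INTS3, 16.5 in NABP1, 12.5 in NABP2, 28.1 in INIP, 11.2 in INTS9 and 11.8 in INTS11. The groups overlapped, INIP being above NELFA, NELFCD and NELFE. The start of the RefSeq lncRNA Gm32210 fell in it.

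The interval chr3:40970001-41040000 lies between Pgrmc2, a gene for a heme-binding membrane protein, and Gm16508. These genes are 84.0 and 50.2 kb from its outermost sites. The interval holds the start of the lncRNA Gm40038. It held 25.5 ± 10.6 sites per 100000 in NELF, 7.31 in SPT5 and 9.57 ± 2.88 in Integrator. The interval chr10:18840001-18920000, between Tnfaip3, an inhibitor of NF-kappaB signalling, and Olig3, a transcription factor of the neural tube, held 21.1 ± 4.08 in NELF, 6.09 in SPT5 and 12.2 ± 3.23 in Integrator. The lncRNA Gm20139 starts there. The interval chr17:39980001-39990000, in AY036118, held 13.3 in NELFA, 12.9 in NELFB, 7.27 in NELFCD and 53.3 in NELFE, 6.09 in SPT5, and 6.23 to 18.1 in Integrator libraries. NELFE stood apart from the other NELF libraries in it.

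The interval chr8:129350001-129410000, between Irf2bp2 and Tomm20, a receptor of mitochondrial protein import, held 10.4 ± 10.4 sites per 100000 in NELF, 3.66 in SPT5 and 10.6 ± 5.68 in Integrator. The lncRNAs Gm31718 and A630001O12Rik start in it. At chr6:51110001-51160000, near the microRNA gene Mir148a, the values were 10.2 ± 8.67 in NELF, 13.4 in SPT5 and 8.28 ± 4.96 in Integrator. It holds starts of the lncRNAs Gm52901, Gm32328 and Gm32403. At chr5:112300001-112330000, between the noncoding genes E130006D01Rik and Miat, they were 15.2 ± 6.79 in NELF, 4.88 in SPT5 and 5.02 ± 2.19 in Integrator. At chr19:37880001-37910000, between Cyp26a1, which degrades retinoic acid, and Myof, a membrane-repair protein, they were 14.4 ± 9.54 in NELF, 9.75 in SPT5 and 4.47 ± 1.61 in Integrator. No RefSeq start was placed in either of these last intervals.

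The interval chr10:120090001-120150000 lies between SNORA17 and 4921513I03Rik, which are 50.1 and 53.0 kb from its outermost sites. Beyond SNORA17, at 179 kb, is Hmga2, a chromatin protein of growing embryonic cells. The interval held 10.3 ± 6.88 sites per 100000 in NELF, 1.22 in SPT5 and 5.74 ± 2.64 in Integrator. The lncRNA Gm35062 starts in it. The interval chr15:64440001-64470000, between Asap1 and Adcy8, an adenylyl cyclase, held 9.43 ± 7.15 in NELF, 2.44 in SPT5 and 5.26 ± 2.10 in Integrator, with the start of the lncRNA Gm30691. Of the 10 intervals, 7 therefore held at least 1 RefSeq lncRNA start that the annotation used for the distance rule lacks. Of single 10-kb windows wholly in far ground, 2.61% held a RefSeq start of any kind. The intervals were 10 to 120 kb long, and longer ground holds a start more often. The share for other far ground of the same lengths was not computed.

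Such starts were counted over all far ground. RefSeq start sequences were placed on NCBIM37 by exact match, 31862 of 32619 at 1 place. In far ground lay 2286 starts of 1949 genes, 1803 of them lncRNAs and 146 protein-coding. Within 1 kb of these starts the density of far sites was 1.94 ± 0.214 times the far mean in NELF, 1.85 in SPT5 and 1.68 ± 0.265 in Integrator (SD, n = 4 and 6), an exact permutation test giving p = 0.119 and an adjusted p of 0.476 over 12 tests. Between 20 and 50 kb from these starts it was 1.23 ± 0.0765 in NELF, 1.11 in SPT5 and 1.18 ± 0.0684 in Integrator. For lncRNA starts alone the values within 1 kb were 2.03 ± 0.235 in NELF, 1.86 in SPT5 and 1.70 ± 0.266 in Integrator. For protein-coding starts they were 1.08 ± 0.312 in NELF, 1.96 in SPT5 and 1.38 ± 0.838 in Integrator. Those values rest on 1 to 3 sites per NELF library, 7 in SPT5 and 2 to 11 per Integrator library. Exact binomial intervals ran from 0.162 to 4.82 in NELFA and from 0.0245 to 5.39 in NELFE. Such counts are too few in NELF to tell protein-coding from lncRNA starts. From 1 to 5 kb from protein-coding starts the density was 0.825 ± 0.555 in NELF, 0.899 in SPT5 and 0.904 ± 0.197 in Integrator. The NELF libraries held 2 to 8 sites each at that distance. At 20 to 50 kb from protein-coding starts the density was 0.883 ± 0.121 in NELF, 0.853 in SPT5 and 0.765 ± 0.0852 in Integrator. Of all far sites, 23.1% lay within 50 kb of such a start, against 17.9% of far ground, and 4.02% lay within 5 kb, against 2.64% of far ground. Each of the 1949 genes was then taken at its start with the most libraries. Of these genes 223, or 11.4%, had sites of at least 4 libraries within 5 kb of that start. The share was 4.63% for 10-kb windows wholly in far ground, which were fixed without such a choice. The choice of start raises the share for genes, so these shares are not of like kind.

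**Figure D5:**
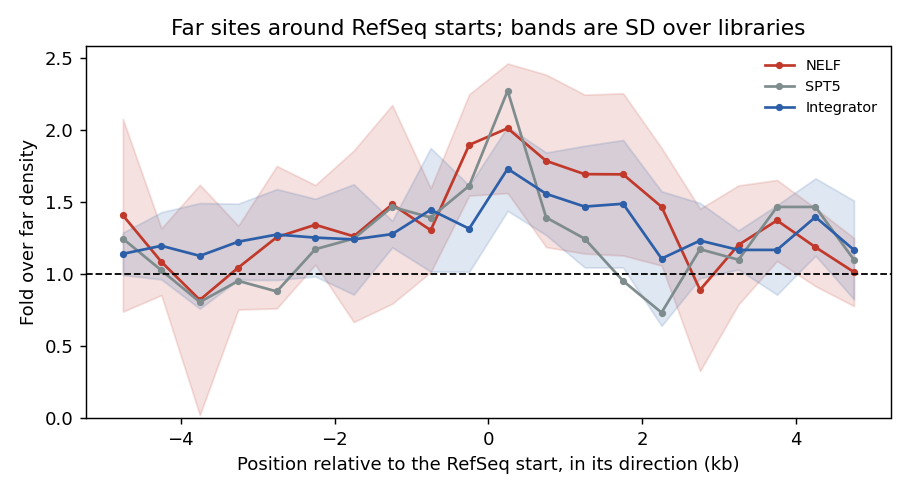
Density of far sites as a fold over the far mean (y axis) in bins of 500 bases around RefSeq starts (x axis, kb, in the direction of the gene), as means of NELF, SPT5 and Integrator libraries with SD bands for NELF and Integrator. Each site is counted at its nearest start. Bins are scaled to 500 bases for each of the 2286 starts, without allowing for overlap or for ground that is not far. The folds over the true ground within 1 kb are scaled otherwise and were 1.94 in NELF, 1.85 in SPT5 and 1.68 in Integrator.

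Windows hit by more libraries held RefSeq starts and AP-1 matches more often, given as a description with no test. Of the windows wholly in far ground with no far site, 1.78% held a RefSeq start. The share was 5.36% in windows hit by 4 to 5 libraries and 10.97% in those hit by 6 to 8 libraries, 42 of 383. AP-1 matches averaged 4.22 per window hit by 6 to 8 libraries, against 3.01 per window with no site, and GC content 42.1%, against 39.3%.

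Around single far sites, the AP-1 motif TGANTCA, which reads the same on both strands, lay within 150 bases of 11.1% of sites in NELFA, 11.7% in NELFB, 12.5% in NELFCD, 11.1% in NELFE and 9.97% in SPT5. In Integrator libraries the share was 9.80% (INTS11) to 11.4% (INTS9), and it was 8.96% over all far positions. All 11 libraries lay above that background. The means were 11.6% ± 0.662 in NELF and 10.6% ± 0.606 in Integrator (SD, n = 4 and 6), an exact permutation test giving p = 0.0429 and an adjusted p of 0.0857. Other motifs were searched on both strands in the same window. The TEAD motif CATTCC lay near 18.0% of sites in NELF, 17.3% in SPT5 and 17.3% in Integrator, against 16.4% of far positions. The RUNX motif TGTGGT lay near 20.1% in NELF, 19.1% in SPT5 and 19.9% in Integrator, against 18.3% of far positions. The SP motif GGGCGG lay near 1.75% in NELF, 1.93% in SPT5 and 1.52% in Integrator, against 1.58% of far positions. CpG-rich sequence surrounded 0.321% of far sites in NELF, 0.274% in SPT5 and 0.201% in Integrator, against 0.322% of far positions (exact permutation test, NELF and Integrator, p = 0.119, adjusted p = 0.179). Without the chromosome 17 window, the shares were 0.154% in NELF and 0.110% in Integrator. Within 500 bases on each side the share was 0.247% in NELF, 0.228% in SPT5 and 0.134% in Integrator, against 0.0847% of far positions, and 10 of the 11 libraries lay above that background, whereas 2 did at 150 bases. GC content around far sites was 40.2% in NELF, 40.3% in SPT5 and 40.1% in Integrator, against 39.5% of far positions, and its part in the motif shares was not tested.

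Bases at the junction were counted along the given strand, the deposited position being position 1. Position 1 was G at 31.9% of far sites as a mean of the 11 libraries, against 38.4% of all other sites. Position 6 was C at 32.6% of far sites, against 38.2% of all other sites. Away from the junction, at position -10, G was 17.3% against 20.6% and C 18.4% against 21.1%. The part of base content in these differences was not tested. Among all other sites, G was also 31.4% at position -1 and 29.5% at position 2. Whether the deposited position marks the same junction base on both strands was not tested. HIV integration has a known weak base preference around the junction.

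Far sites were uneven over chromosomes. Relative to the far length of each chromosome, chromosome 15 had 1.36 times the mean density as a mean of the libraries, chromosome 10 had 1.34, chromosome 16 had 1.22, chromosome 8 had 1.19, chromosome 19 had 1.18 and chromosome 3 had 1.11, and all 11 libraries were above 1 on each. Chromosome X had 0.664, chromosome 7 had 0.677, chromosome 14 had 0.791, chromosome 12 had 0.807, chromosome 18 had 0.809 and chromosome 4 had 0.919, and all libraries were below 1 on each. For all sites, far ones included, the mean ratios were 1.404, 1.225, 1.06, 1.18, 1.496 and 0.978 on chromosomes 15, 10, 16, 8, 19 and 3. They were 0.507, 0.761, 0.642, 0.7196, 0.743 and 1.05 on chromosomes X, 7, 14, 12, 18 and 4. Except on chromosomes 3 and 4, the direction was therefore that of all sites and not particular to far ground. On chromosome 19 the ratio of far sites was 1.32 in NELF and 1.07 in Integrator (exact permutation test, p = 0.00476, adjusted p = 0.0952 over 20 chromosomes). None of the 20 chromosomes differed between NELF and Integrator past the adjusted threshold, and 2 had an unadjusted p under 0.05.

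In windows of 100 kb, NELF and Integrator were compared with limma. Of 3896 windows over the genome 11 passed, or 0.282%. Of the same 3896 windows, 460 had an unadjusted limma p under 0.05. Of the 58 windows at least 50% far, 0 passed and 3 had an unadjusted p under 0.05. With 0.282% passing over the genome, 58 windows are too few for 0 to set far windows apart. The window with the lowest p, chr2:117400001-117500000, held 19.1 ± 5.36 sites per 100000 in NELF and 9.15 ± 1.99 in Integrator (SD, n = 4 and 6), a log2 fold of 0.97 with a standard error of 0.35 and a limma adjusted p of 0.291. It was named after its value was seen.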

How the data were processed

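The authors deposited lists of positions, which are no counts, signal or other measured level. Each line gives, per the file headers, where the genome begins next to the viral end, and on which strand. The build is mm9, per the submitters' processing notes, and junctions were amplified by linker-mediated PCR, per the labels' protocols. Aligner: not given in the sources used here. Altogether 873534 entries were collapsed to distinct chromosome, position and strand. A number after each read name, never explained in the headers, was treated as reads. Repeat runs of a protein were 1 library.

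Genes were the 32044 of GENCODE M1 on chromosomes 1 to 19 and X that are not pseudogenes. Uniform expectations are analytic and count every base other than N, including bases to which reads cannot be mapped. Equal sizes came from a hypergeometric formula checked on simulated sites. The 10 named intervals had the most libraries, then the most sites per 100000. RefSeq starts used sequences of 300 bases. CpG-rich means at least 50% GC and an observed over expected CpG ratio of at least 0.6 in 301 bases. The limma fit used log2 of sites per 100000 plus a pseudocount of 1 in windows with a mean of at least 5 sites. The members and lists were chosen with earlier results of these data known. A planned comparison of repeats was not run, since the genome used here does not mark them. Python 3.11.15, R 4.3.3 and limma 3.58.1 were used.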

Additional observations from a re-analysis of the deposited data

Results flagged for a closer look

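Within the groups of 4 and 6 libraries, 96 sets of values were searched for a library far from the others, and 8 were found. For sets not chosen by value, chance gives about 1 in 20, which is 4.8 of 96. That rate does not hold for the sets from the 10 named intervals, which were chosen for high values. The flags in the intervals on chromosomes 2, 6 and 17 come from such sets. Among Integrator libraries, NABP2 was highest in clustering of far sites at 2.22%, and INTS11 was highest in the share over 200 kb from genes at 32.6%. INTS11 was highest on chromosome X at a ratio of 0.868, and in the interval on chromosome 6 at 17.7 sites per 100000. INIP was highest in the interval on chromosome 2 at 28.1 sites per 100000. Among NELF libraries, NELFB had the lowest density beyond 500 kb, at 0.273 of uniform. NELFCD was highest on chromosome 5 at a ratio of 1.09. NELFE was highest in the chromosome 17 interval at 53.3 sites per 100000.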

How the results depend on the processing

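Differences below are NELF minus Integrator in percentage points, and adjusted p-values are from the exact permutation tests. The far share and the share over 200 kb kept direction and call under all 20 alternatives run. Clustering passed with a distance rule of 20 kb (2.37, adjusted p = 0.0286), with protein-coding genes only (2.15), within 500 bases (1.24) and, chosen after seeing the data, without 5 kb around RefSeq starts (1.39). It turned to -3.14 with unequal library sizes (4.23% in NELF and 7.36% in Integrator), where larger libraries have more neighbours by construction. The AP-1 difference passed at 20 kb (1.30), with protein-coding genes only (1.16) and at 500 bases each side (2.01). The CpG-rich difference passed at 20 kb (0.323) and with protein-coding genes only (0.234). With 1 library left out at a time, differences ranged from 1.02 to 1.74 for clustering, from 0.993 to 1.66 for shared windows, from 0.761 to 1.23 for AP-1 and from 0.0434 to 0.167 for CpG-rich sequence; without NABP2, each of these passed at an adjusted p of 0.0476. The ratio of shared windows to uniform placement was 4.23 with windows of 5 kb, 1.03 with 20 kb, 1.12 at 3 libraries, 16.96 at 6 libraries and 7.57 at equal library size. It ranged from 1.93 to 2.54 with 1 library left out, and was 1.87 without the chromosome 17 window, where the CpG-rich difference was 0.0436. The limma count in far windows was 0 in all 14 alternatives. At a minimum mean of 2 sites, 1043 far windows were tested, and 22 of 11246 windows over the genome passed. At a minimum mean of 10 sites, 2 far windows were tested, and 18 of 1174 over the genome passed. The cause of these changes was otherwise not tested. No paired analysis was possible because library numbers only name subunits. Depth limits single libraries: NELFE had 2534 far sites.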

Other observations

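A single genome position on the same strand was rarely shared by libraries in far ground: 114 of 104831 far positions were found in at least 2 libraries, against 5274 of 826194 positions over the genome. Position 76874821 on chromosome 16 was found in 8 libraries, position 88928885 on chromosome 8 in 6 and position 56129446 on chromosome 19 in 5. Far sites were on the plus strand in 48.5% (NABP2) to 50.4% (INTS3) of cases. Sites with 2 reads made up a larger share of far sites than of other sites in each of the 11 libraries. The shares were 21.4% of far sites and 12.6% of other sites in SPT5, 17.4% and 13.6% in NABP2, 14.0% and 10.7% in NELFCD, 9.03% and 7.84% in NELFA, and 10.96% and 10.1% in INTS11.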
